A study of Mus musculus with 9 samples.

Results

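The 7 genes described here encode the inhibitors of cyclin-dependent kinases (CDKs): Cdkn1a, Cdkn1b, Cdkn1c, Cdkn2a, Cdkn2b, Cdkn2c and Cdkn2d. They were chosen by symbol, and all 7 were found on the arrays, with 8 probe sets among the 28939 tested. Each gene is described by its brightest probe set over all 9 arrays, and only Cdkn1b had a further one. The Cdkn1a probe set is annotated to 4930567H12Rik as well. The arrays hold liver RNA of male C57/BL6 mice aged 8 to 9 weeks, 1 array per sample and 3 samples per group. The groups were a cross of hepatocyte-specific NEMO knockout mice (NEMOΔhepa) with constitutive p21-/- mice, the NEMOΔhepa knockout itself, and wild type. No group lacked p21 alone, and the promoter that drives the hepatocyte deletion is not given in the sources used here. No label states that the samples are separate animals, so p-values measure the spread between these samples. Array numbers in the sample descriptions run in blocks by genotype, so any effect of handling order cannot be told apart from genotype.

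CDK inhibitors hold back the cell cycle along a pair of routes. The CIP/KIP proteins p21 (Cdkn1a), p27 (Cdkn1b) and p57 (Cdkn1c) bind complexes of cyclins with CDKs, above all those of CDK2, while the INK4 proteins p16 (Cdkn2a), p15 (Cdkn2b), p18 (Cdkn2c) and p19 (Cdkn2d) bind CDK4 and CDK6 and keep D-type cyclins off them. In liver, p21 is a target of p53 that rises after damage and restrains hepatocyte division. Ikbkg encodes NEMO, without which the kinase complex that switches on NF-κB does not respond.

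The deposited values are log2 expression after RMA, so a difference of 1 is a ratio of 2, and levels of different genes are not comparable because their probes differ. A difference was called at an adjusted p under 0.05 by limma over all 28939 probe sets, and is given with its standard error (SE) or 95% interval. Array medians ran from 6.47 to 6.48 in wild type and from 6.52 to 6.58 on the knockout arrays, so every wild type median was below every knockout one. Hepatocyte markers were abundant in every group, their mean log2 level running from 12.86 to 12.97 in the cross, 12.87 to 12.92 in the NEMO knockout and 12.93 to 12.97 in wild type, and none of 8 was called in any comparison.

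The targeted genes were looked at first. Ikbkg read 8.10, 8.26 and 8.45 in the cross, 8.23, 8.48 and 8.35 in the NEMO knockout and 8.73, 8.89 and 8.98 in wild type. It was lower than wild type on every knockout array, at a called -0.60 ± 0.11 in the cross (SE, limma adjusted p = 0.00835) and -0.52 ± 0.11 in the NEMO knockout (adjusted p = 0.0184). The deletion is limited to hepatocytes, and a liver sample contains other cells too. Cdkn1a went against its label: its signal in the livers labelled as lacking p21 was the highest of the 3 groups. The position of its probes against the deletion in p21-/- mice was not analysed here, so the signal does not test whether p21 protein was lost. These livers are called the labelled double knockout below, and each direction given for them rests on that label.

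The start regions of Cdkn1a and Cdkn2c are shown because these are the 2 members called in any comparison. RefSeq gives each gene a pair of start sites, and each line holds 250 bases before and 50 after one of them (build GRCm38.p6). The Cdkn1a gene lies on chromosome 17, plus strand, and Cdkn2c on chromosome 4, minus strand. Capitals mark 2 copies of CATG with 6 bases of any kind between them, the spacing of the cores of paired p53 half-sites.
Cdkn1a upstream start, chr17:29090729-29091028: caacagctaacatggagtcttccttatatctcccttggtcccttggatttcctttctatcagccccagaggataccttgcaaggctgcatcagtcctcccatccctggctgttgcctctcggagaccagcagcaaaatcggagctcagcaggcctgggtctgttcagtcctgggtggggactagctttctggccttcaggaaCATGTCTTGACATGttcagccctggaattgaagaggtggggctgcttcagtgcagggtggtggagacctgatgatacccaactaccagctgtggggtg
Cdkn1a downstream start, chr17:29093519-29093818: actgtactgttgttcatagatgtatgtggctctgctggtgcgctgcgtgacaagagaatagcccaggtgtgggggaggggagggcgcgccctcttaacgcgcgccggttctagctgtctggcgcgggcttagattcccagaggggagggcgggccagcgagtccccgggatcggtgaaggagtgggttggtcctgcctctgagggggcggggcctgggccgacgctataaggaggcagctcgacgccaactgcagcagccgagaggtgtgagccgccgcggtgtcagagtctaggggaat
Cdkn2c upstream start, chr4:109666707-109667006: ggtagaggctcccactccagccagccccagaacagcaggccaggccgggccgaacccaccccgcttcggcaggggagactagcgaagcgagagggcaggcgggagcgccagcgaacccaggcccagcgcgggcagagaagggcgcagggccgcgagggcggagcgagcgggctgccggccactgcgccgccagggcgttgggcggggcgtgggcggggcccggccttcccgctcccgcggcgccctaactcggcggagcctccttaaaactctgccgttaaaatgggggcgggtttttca
Cdkn2c downstream start, chr4:109665323-109665622: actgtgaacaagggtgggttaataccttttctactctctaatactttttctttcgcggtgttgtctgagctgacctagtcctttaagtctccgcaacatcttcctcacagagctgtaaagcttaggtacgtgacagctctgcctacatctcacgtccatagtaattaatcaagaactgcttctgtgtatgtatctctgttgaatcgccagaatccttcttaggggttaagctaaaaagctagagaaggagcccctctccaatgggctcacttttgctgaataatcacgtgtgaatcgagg
The paired CATG cores begin 48 bases before the upstream Cdkn1a start, and the pattern reads the same on either strand. It occurs in 234 (0.712%) of 32851 windows of this length, and was chosen after the window had been read. The full p53 consensus with adjoining half-sites, with no mismatch allowed, was in 3 of those windows and in none of the 9 windows of the 6 members that have one (Cdkn1c is the other member). The E2F-like motif TTTNNCGC (5.17% of windows, either strand) was in both Cdkn2a windows and in no other window of the members, and the κB-like motif of GGG and TTTCC with 2 bases between them (1.63% of windows, either strand) was in none. These are matches of letters, and binding was not measured.

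Cdkn1a, which encodes p21, had the largest differences of the 7 genes in all 3 comparisons and the widest spread between samples of a group. It read 11.14, 10.14 and 11.06 in the labelled double knockout (10.78 ± 0.56, SD, n = 3), 9.76, 10.7 and 9.83 in the NEMO knockout (10.1 ± 0.53) and 8.54, 9.64 and 7.83 in wild type (8.67 ± 0.91). Both knockout groups lay above every wild type array, and they overlapped each other. The lowest NEMO knockout array (9.76) and the highest wild type array (9.64) were close together. Wild type replicate 2 stood above the other wild type arrays.

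Cdkn1a rose by 2.11 ± 0.45 in the labelled double knockout over wild type (4.31-fold, 95% interval 1.08 to 3.13, adjusted p = 0.0194). The NEMO knockout was 1.43 ± 0.45 above wild type (2.69-fold, 0.41 to 2.45, adjusted p = 0.101) and was not called. Without wild type replicate 2 that difference was 1.91 and called (adjusted p = 0.0283). The labelled double knockout stood 0.68 ± 0.45 above the NEMO knockout (-0.34 to 1.70, adjusted p = 0.803), an interval that includes 0. The pooled SD within groups was 0.688 for Cdkn1a, against a median of 0.119 over all probe sets, and 99.7% of probe sets had a smaller one. The call against wild type ended without any 1 of 4 arrays: wild type replicate 1 (adjusted p = 0.0633) and 3 (0.062), and labelled double knockout replicate 1 (0.0706) and 3 (0.0764). It ended too with only those 2 groups in the fit (adjusted p = 0.0507).

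**Figure D1:**
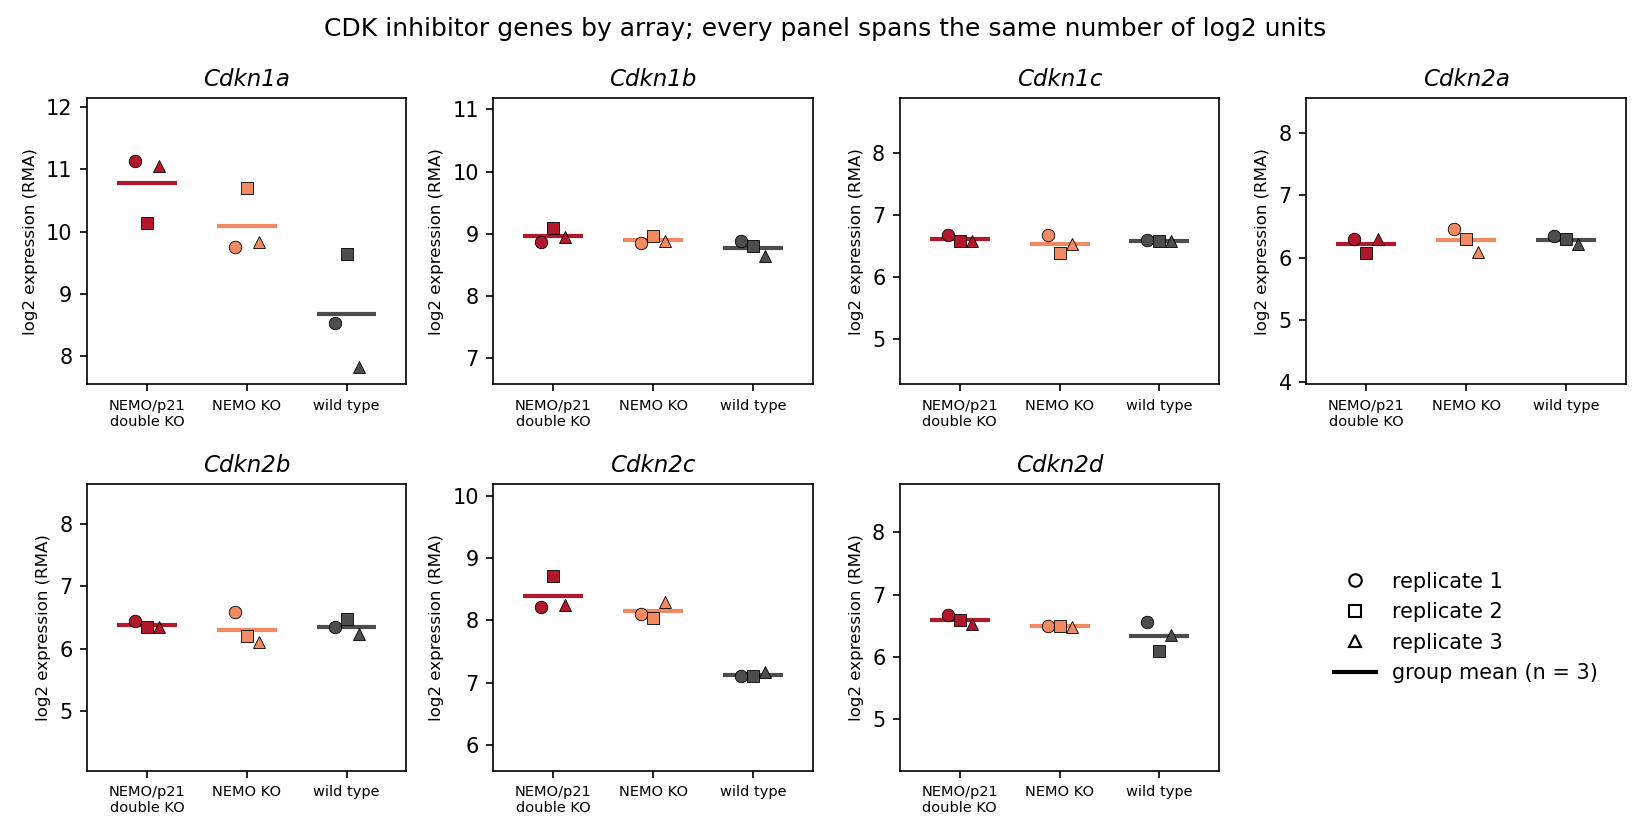
Log2 expression (RMA) of the 7 CDK inhibitor genes on each array, with symbols for replicate numbers, horizontal bars for group means (n = 3) and axes that span the same number of log2 units in every panel. Cdkn1a runs from 7.83 to 11.14 and its groups are wide, Cdkn2c forms a tight wild type group between 7.1 and 7.17 below all 6 knockout arrays, and the other 5 genes stay close to level.

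The other CIP/KIP genes had no called difference between genotypes. Cdkn1b, which encodes p27, the inhibitor typical of resting cells, read 8.86, 9.1 and 8.95 in the labelled double knockout, 8.85, 8.96 and 8.88 in the NEMO knockout and 8.88, 8.81 and 8.64 in wild type. The groups overlapped. Its difference from wild type in the labelled double knockout was 0.19 ± 0.09 (0.00038 to 0.38) with an unadjusted p of 0.0496 and an adjusted p of 0.237, which is no call. The second, dimmer Cdkn1b probe set ran between 5.66 and 6.55 and differed by 0.30 ± 0.17 in the same comparison (adjusted p = 0.402).

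Cdkn1c encodes p57, an imprinted inhibitor of embryonic growth. It read 6.68, 6.58 and 6.58 in the labelled double knockout, 6.68, 6.39 and 6.53 in the NEMO knockout and 6.6, 6.58 and 6.58 in wild type. All groups overlapped, and the 95% interval of the difference between the labelled double knockout and wild type, -0.15 to 0.21 (adjusted p = 0.908), includes 0.

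Among the INK4 genes Cdkn2c rose in both knockout groups relative to wild type. Cdkn2c encodes p18, which inhibits CDK4 and CDK6. It read 8.22, 8.72 and 8.24 in the labelled double knockout, 8.1, 8.04 and 8.29 in the NEMO knockout and 7.1, 7.11 and 7.17 in wild type. Every knockout array lay above every wild type array, and the wild type arrays were close together (SD 0.035).

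The rise of Cdkn2c over wild type was 1.26 ± 0.13 in the labelled double knockout (2.40-fold, 0.97 to 1.55, limma adjusted p = 0.000513) and 1.01 ± 0.13 in the NEMO knockout (2.02-fold, 0.72 to 1.30, adjusted p = 0.00169). Both calls held under all 18 alternatives. The difference between the knockout groups was 0.25 ± 0.13 (-0.04 to 0.54, adjusted p = 0.71). These comparisons share arrays, so they are not independent of each other. Cdkn1a and Cdkn2c did not follow the same samples: labelled double knockout replicate 2 had the lowest Cdkn1a (10.14) and the highest Cdkn2c (8.72) of its group, and in the NEMO knockout replicate 2 had the highest Cdkn1a (10.7) and the lowest Cdkn2c (8.04).

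Markers of dividing cells were higher than wild type in both knockout groups, as Cdkn2c was. Within wild type, replicate 1 had their highest mean level (6.61). Cdkn2c read 7.1, 7.11 and 7.17 on the wild type arrays, a spread too small to rank them. Of 19 such markers measured, 19 were called higher in the labelled double knockout and 15 in the NEMO knockout than in wild type, and none was lower. These and the marker counts below stand beside 5.81% and 5.66% of all probe sets called higher, and 3.51% and 2.02% lower, in the same order. The mean log2 level of the 19 ran from 7.98 to 8.15 in the labelled double knockout, 7.09 to 7.54 in the NEMO knockout and 5.76 to 6.61 in wild type. The spindle protein Prc1 (1.16 ± 0.15) was the 1 of the 19 called between the knockout groups, higher in the labelled double knockout, and that call was lost under 10 of 18 alternatives. All 19 differences between the knockout groups were positive, with a median of 0.89 beside 0.003 over all probe sets. By limma 16 of them had an unadjusted p under 0.05. For 17 of the 19 all labelled double knockout arrays lay above those of the NEMO knockout, as in 4.99% of all probe sets. Of 8 macrophage markers 7 were higher than wild type in each knockout group, with the largest difference for the glycoprotein Gpnmb (3.96 ± 0.15 and 3.56 ± 0.15). Their mean level ran from 8.07 to 8.30 in the labelled double knockout, 8.11 to 8.30 in the NEMO knockout and 6.69 to 6.91 in wild type. Kupffer cell markers (7 of 9 higher in each knockout group) and stellate cell markers (8 of 10) did likewise. Of 8 cholangiocyte and ductular markers 3 were higher than wild type in the labelled double knockout and 4 in the NEMO knockout. Of 9 T and NK cell markers none was called in the labelled double knockout by limma, where 1 had an unadjusted p under 0.05, and 3 were higher in the NEMO knockout. None of those 9 was called between the knockout groups by limma, where 4 had an unadjusted p under 0.05, and for 4 of them all labelled double knockout arrays lay below those of the NEMO knockout. Neutrophil markers had 1 of 9 higher and 1 lower than wild type in the labelled double knockout, and 2 higher in the NEMO knockout. Between the knockout groups none of those 9 was called, though all 9 differences were negative (median -0.22). By limma 4 had an unadjusted p under 0.05, and for 4 all labelled double knockout arrays lay below those of the NEMO knockout. Over all probe sets 5.75% lay wholly below in this way. No B cell (5) or endothelial marker (8) was called in any comparison by limma, with at most 2 of a list at an unadjusted p under 0.05. The part of these cells in the Cdkn1a and Cdkn2c values was not tested, and in whole liver more cells of a type and more RNA per cell cannot be told apart.

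The other INK4 genes showed no called difference. Cdkn2a gives rise to both p16 and ARF, the activator of p53, and the arrays used here give it 1 value. It read 6.3, 6.07 and 6.3 in the labelled double knockout, 6.46, 6.3 and 6.09 in the NEMO knockout and 6.35, 6.3 and 6.22 in wild type. Its neighbour Cdkn2b, encoding the TGF-β-induced p15, read 6.44, 6.34 and 6.34 in the labelled double knockout, 6.59, 6.2 and 6.11 in the NEMO knockout and 6.35, 6.47 and 6.23 in wild type. For both genes the 3 groups overlapped throughout. Against wild type the 95% interval of the difference in the NEMO knockout was -0.24 to 0.23 for Cdkn2a and -0.32 to 0.23 for Cdkn2b. In the labelled double knockout it was -0.30 to 0.17 for Cdkn2a and -0.25 to 0.30 for Cdkn2b.

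Cdkn2d, which encodes p19, read 6.67, 6.59 and 6.53 in the labelled double knockout, 6.5, 6.5 and 6.48 in the NEMO knockout and 6.56, 6.09 and 6.35 in wild type. The labelled double knockout arrays lay just above those of the NEMO knockout, by 0.10 ± 0.11 (adjusted p = 0.892). Against wild type the labelled double knockout was at 0.26 ± 0.11 (0.02 to 0.50) with an unadjusted p of 0.0348 and an adjusted p of 0.191. Without wild type replicate 1 that difference was 0.37 and just passed (adjusted p = 0.0499).

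Counted over the family, 1 of 7 genes (Cdkn2c) was called higher and none lower in the NEMO knockout than in wild type, beside 5.66% of all probe sets called higher and 2.02% called lower (7.68% in either direction). In 2 of 7 all NEMO knockout arrays lay above all wild type arrays, as in 11.4% of all probe sets, and in none below, as in 11.8%. The labelled double knockout had 2 of 7 called higher than wild type (Cdkn1a and Cdkn2c) beside 5.81% of all probe sets, and none lower beside 3.51% (9.32% in either direction). The arrays of those 2 genes did not overlap, as in 11.6% of all probe sets, and no member lay wholly below, as 13.5% of them did. Between the knockout groups limma called none of the 7, and none had an unadjusted p under 0.05, beside 0.197% of all probe sets called in either direction (0.0864% higher and 0.111% lower). For Cdkn2d alone all labelled double knockout arrays lay above those of the NEMO knockout, as in 4.99% of all probe sets, and no member lay wholly below, as 5.75% of them did. Centring the arrays on their medians moves the split of all calls: 44.1% of calls were then higher in the labelled double knockout than in wild type in place of 62.3%, and 52.7% in the NEMO knockout in place of 73.7%. The median difference of the 7 genes was 0.19 in the labelled double knockout and 0.12 in the NEMO knockout, each against wild type, beside -0.03 and -0.04 over all probe sets. Apart from Cdkn1a and Cdkn2c, the 5 genes had differences from wild type between -0.07 and 0.26 in the labelled double knockout and between -0.06 and 0.16 in the NEMO knockout.

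**Figure D2:**
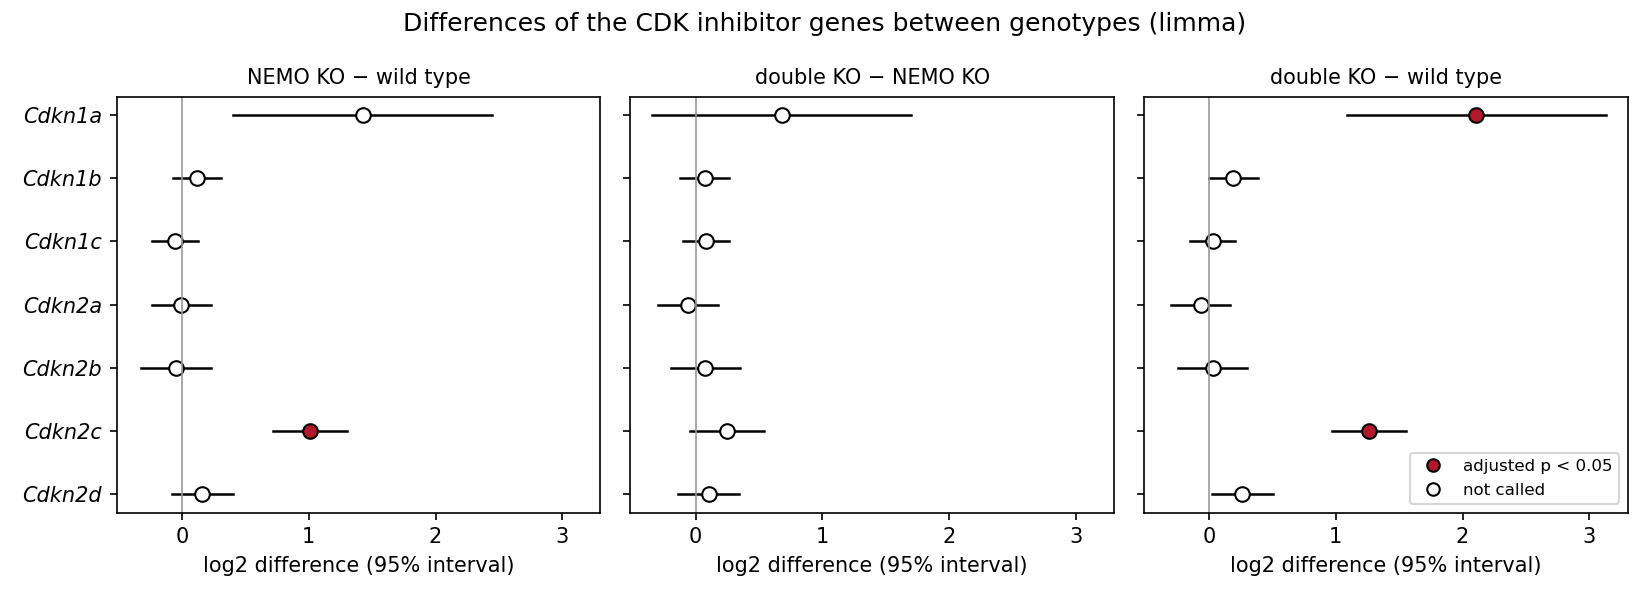
Log2 differences of the 7 genes (points) with 95% intervals (lines) from limma in the 3 comparisons; red points passed an adjusted p under 0.05. Cdkn1a has the widest intervals, up to 1.08 to 3.13, and in the middle comparison, between the knockout groups, every interval includes 0.

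The kinases and cyclins on which these inhibitors act were examined next. Of 18 measured CDK, cyclin and CDC25 genes 8 were called higher in the labelled double knockout and 5 in the NEMO knockout than in wild type, and none was lower. The median difference was 0.15 in the labelled double knockout and 0.17 in the NEMO knockout, beside -0.03 and -0.04 over all probe sets. Of all probe sets 5.81% and 5.66% were called higher and 3.51% and 2.02% lower, in the same order. The mitotic partners led: cyclin A2 (Ccna2) was 3.04 ± 0.39 higher in the labelled double knockout and 2.11 ± 0.39 higher in the NEMO knockout, cyclin B2 (Ccnb2) 2.80 ± 0.36 and 2.33 ± 0.36, and Cdk1 2.57 ± 0.22 and 1.51 ± 0.22, in the same order.

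CDK4, CDK6 and their D-type cyclins are the partners on which INK4 proteins act. Cyclin D1 (Ccnd1) rose by 1.43 ± 0.22 in the labelled double knockout and 1.996 ± 0.22 in the NEMO knockout over wild type. All labelled double knockout arrays lay below those of the NEMO knockout for it (-0.57 ± 0.22, -1.06 to -0.07), which was not called (adjusted p = 0.609). Cdk6 was 0.15 ± 0.08 above wild type in the labelled double knockout, which was not called, and rose by 0.33 ± 0.08 in the NEMO knockout. Cdk4 stood 0.15 ± 0.06 (adjusted p = 0.216) and 0.10 ± 0.06 (adjusted p = 0.424) above wild type in the labelled double knockout and the NEMO knockout. Cdk2, the kinase of the CIP/KIP proteins, was at 0.15 ± 0.09 and 0.07 ± 0.09 in the same order, with neither called. Cyclin E2 (Ccne2), the partner of Cdk2 at the start of DNA replication, was the 1 gene of the list called between the knockout groups, at 0.85 ± 0.10 higher in the labelled double knockout (adjusted p = 0.0284). By limma 6 of the 18 had an unadjusted p under 0.05 there. All labelled double knockout arrays lay above those of the NEMO knockout for 4 and below for 3, beside 4.99% and 5.75% of all probe sets.

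The list of pocket proteins and E2F factors, protein classes that CDKs control at entry into DNA replication, had 17 measured genes. It also holds genes outside these classes, Lin9 among them. In the labelled double knockout 4 of the 17 were called higher and 2 lower than wild type, beside 5.81% and 3.51% of all probe sets. The pocket protein p107 (Rbl1) was 1.34 ± 0.17 and E2f1 0.88 ± 0.13 higher, Lin9 was 0.39 ± 0.10 and E2f7 0.34 ± 0.07 higher, and the repressor E2f6 was at -0.61 ± 0.11 and E2f4 at -0.30 ± 0.08. Of these, the Lin9 call was lost under 14 of 18 alternatives, that of E2f4 under 9 and that of E2f7 under 3. In the NEMO knockout 1 of 17 was higher and 1 lower, which is near the 5.66% and 2.02% over all probe sets. They were Rbl1 at 0.75 ± 0.17 and E2f4 at -0.34 ± 0.08, whose calls were lost under 5 and 4 of 18 alternatives. E2f1 stood at 0.43 ± 0.13 in the NEMO knockout (adjusted p = 0.0823) and E2f6 at -0.35 ± 0.11 (adjusted p = 0.0847). None was called between the knockout groups by limma, where 6 of the 17 had an unadjusted p under 0.05.

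Regulators of the inhibitors fell into those that act on transcription and those that act on protein stability. Of 23 transcriptional regulators 5 were called higher and 1 lower in the labelled double knockout, and 3 higher and none lower in the NEMO knockout, each against wild type. Over all probe sets 5.81% were called higher and 3.51% lower in the labelled double knockout, and 5.66% and 2.02% in the NEMO knockout. The median difference of the 23 was 0.05 and 0.07 in the same order, beside -0.03 and -0.04 over all probe sets. Klf6, a zinc finger factor that can activate Cdkn1a, rose by 1.29 ± 0.11 in the labelled double knockout and 1.25 ± 0.11 in the NEMO knockout. Id1 rose by 0.90 ± 0.14 and 0.53 ± 0.14, and Ezh2, a repressor of Cdkn2a, by 0.76 ± 0.13 in the labelled double knockout, with 0.47 ± 0.13 (adjusted p = 0.0605) in the NEMO knockout. The Id1 call in the NEMO knockout (adjusted p = 0.0464) was lost under 12 of 18 alternatives. Tgfb1, whose product induces p15 and p21, rose by 0.60 ± 0.10 in the labelled double knockout and 0.65 ± 0.10 in the NEMO knockout. Mdm2, the p53 target that degrades p53, was 0.62 ± 0.10 higher in the labelled double knockout (adjusted p = 0.00498) and at 0.34 ± 0.10 in the NEMO knockout (adjusted p = 0.0825). The 1 lower gene was Cbx7, a subunit of the Polycomb complex that represses Cdkn2a, at -0.48 ± 0.11 in the labelled double knockout. Trp53 itself was not analysed here.

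Of 12 genes of the ubiquitin ligases that mark p21, p27 and p57 for degradation, 4 were called higher in the labelled double knockout than in wild type and 2 in the NEMO knockout, and none was lower. Over all probe sets 5.81% and 5.66% were called higher and 3.51% and 2.02% lower, in the same order. Skp2, the subunit that recognises p27, read 7.39 ± 0.09 in the labelled double knockout, 7.02 ± 0.06 in the NEMO knockout and 6.999 ± 0.05 in wild type (SD, n = 3). Its rise over wild type was 0.39 ± 0.07 (adjusted p = 0.00641) in the labelled double knockout, whose arrays lay above those of both other groups. Against the NEMO knockout it stood at 0.37 ± 0.07, which was not called (adjusted p = 0.0908). Cdc20 (1.72 ± 0.19), Dtl, the adaptor that degrades p21 on DNA (1.23 ± 0.19), and Pcna, the clamp on which this happens (0.73 ± 0.10), were also higher in the labelled double knockout than in wild type. In the NEMO knockout Cdc20 was 1.01 ± 0.19 and Ddb1 0.32 ± 0.07 higher, while Dtl (0.33 ± 0.19) and Pcna (0.34 ± 0.10, adjusted p = 0.0707) were not called.

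Other targets of p53 had 21 measured members, of which 11 were called higher in the labelled double knockout and 8 in the NEMO knockout than in wild type, with none lower and medians of 0.62 and 0.34 beside -0.03 and -0.04 over all probe sets. Over all probe sets 5.81% and 5.66% were called higher, in the same order. Ckap2, a spindle protein as well, was 2.44 ± 0.27 and Eda2r 2.41 ± 0.10 higher in the labelled double knockout, and in the NEMO knockout the differences were 1.53 ± 0.27 and 1.69 ± 0.10. Psrc1 was 1.87 ± 0.17 and 0.84 ± 0.17 higher, the antiproliferative Btg2 1.76 ± 0.33 and 1.29 ± 0.33, and Phlda3, an inhibitor of Akt, 1.71 ± 0.10 and 1.21 ± 0.10, in the same order. Eda2r alone was called between the knockout groups, 0.72 ± 0.10 higher in the labelled double knockout (adjusted p = 0.0348). That call was lost under 14 of 18 alternatives and that of Ccne2 under 8. The median of the 21 between the knockout groups was 0.22 beside 0.003 over all probe sets, and 8 had an unadjusted p under 0.05 by limma. For 8 all labelled double knockout arrays lay above those of the NEMO knockout, as in 4.99% of all probe sets, and for none below.

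Senescence-associated genes, often read together with p16 and p21, had 6 of 15 called higher in the labelled double knockout and 5 in the NEMO knockout than in wild type. The medians were 0.07 and 0.21, beside -0.03 and -0.04 over all probe sets, of which 5.81% and 5.66% were called higher, in the same order. Of the 15, 9 were not called in the labelled double knockout and 10 in the NEMO knockout. Il6, Il1b, Cxcl1, Cxcl2, Ccl2, Ccl8, Mmp3, Igfbp3 and Igfbp5 were not called in either group. Mmp12, the macrophage elastase, was 3.67 ± 0.28 and 3.51 ± 0.28 higher, the collagenase Mmp13 2.39 ± 0.29 and 2.13 ± 0.29, and Il1a 0.70 ± 0.17 and 0.78 ± 0.17, in the labelled double knockout and the NEMO knockout. Hmgb2, a chromatin protein that falls in senescent cells, was 0.71 ± 0.10 and 0.46 ± 0.10 higher, and Igfbp7 0.62 ± 0.10 and 0.63 ± 0.10, in the same order. Lmnb1 was 0.44 ± 0.11 higher in the labelled double knockout (limma adjusted p = 0.0436). In the NEMO knockout Lmnb1 stood at 0.23 ± 0.11 and was not called (limma adjusted p = 0.306). Because the counts of higher genes include Hmgb2, they are not counts of senescence-like rises. None of the 15 was called between the knockout groups by limma, where 2 had an unadjusted p under 0.05.

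**Figure D3:**
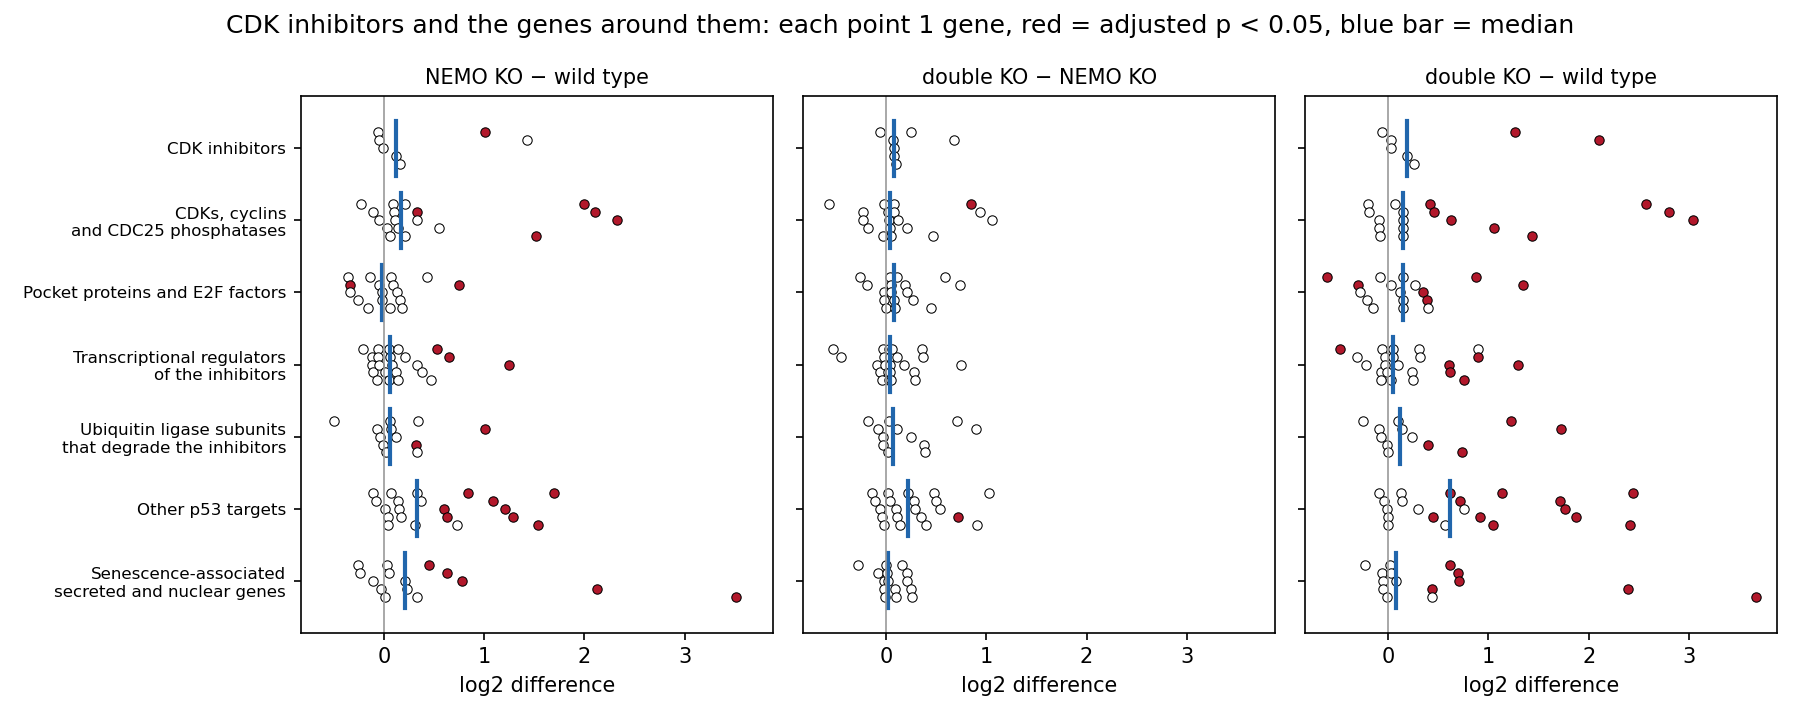
Log2 differences of the CDK inhibitors and of the 6 lists of related genes, 1 point per gene and 1 panel per comparison; red points were called and blue bars are list medians. The p53 targets have the highest median in the comparison of the labelled double knockout with wild type (0.62), and in the middle panel only Ccne2 and Eda2r are called.

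The genes whose profile over the 9 arrays was most like that of Cdkn1a were Shisa9 (Pearson r = 0.98), the interferon-induced Ifitm1 (0.964), Tfpi, the inhibitor of tissue factor (0.964), Thbd, thrombomodulin of endothelial cells (0.959), and Cdc42ep5 (0.956), out of 18814 probe sets compared. Like Cdkn1a, each had its highest wild type and NEMO knockout values in replicate 2, and its lowest value of the labelled double knockout there. After group means were taken off, r stayed between 0.852 and 0.942. The profile of Cdkn2c was most like those of Cd276 (0.982), the p53 target Phlda3 (0.982) and the receptor Tlr13 (0.981), each with low wild type arrays. These values of r are a description of 9 arrays that fall into 3 groups.

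**Figure D4:**
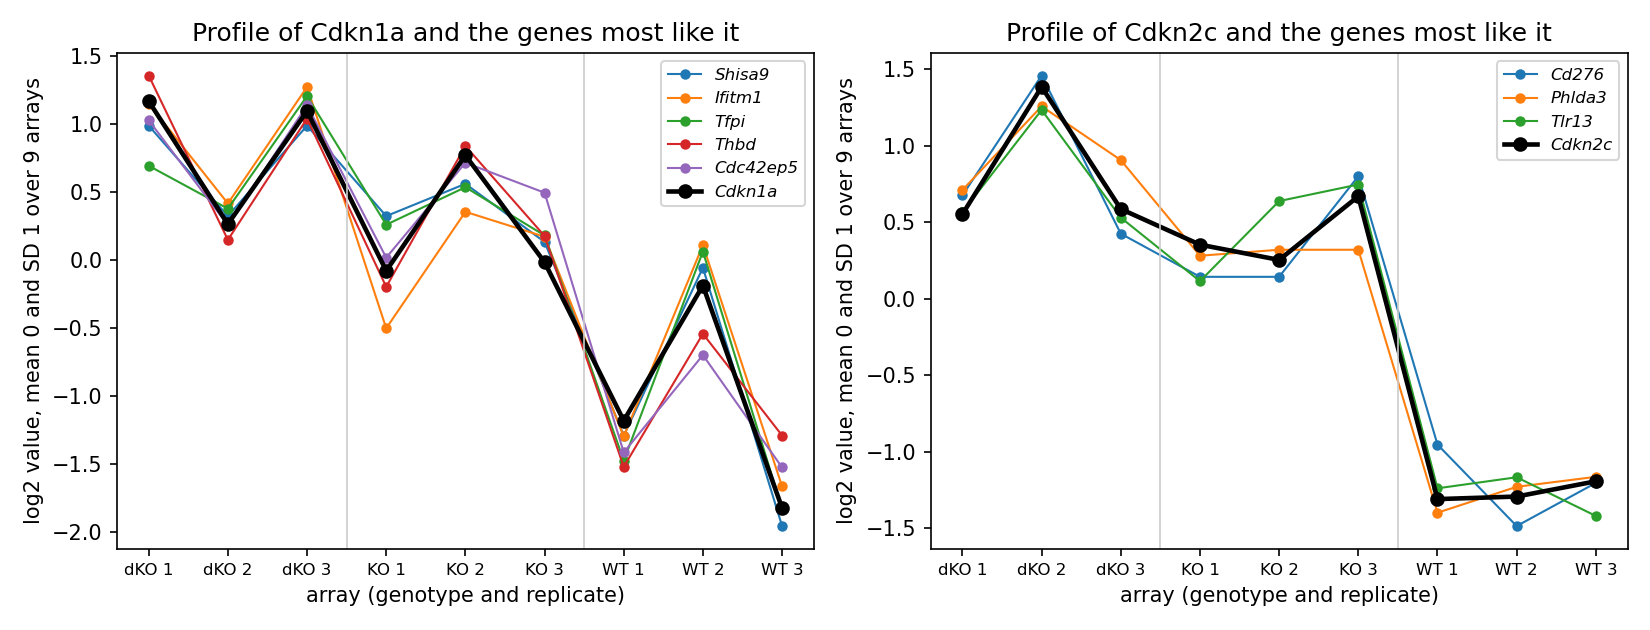
Profiles of Cdkn1a with its 5 most similar genes and of Cdkn2c with its 3 most similar genes over the 9 arrays, each scaled to mean 0 and SD 1 so that levels are not shown. The Cdkn1a group zigzags with replicate 2 in every genotype, and the Cdkn2c group steps down in wild type.

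Genes next to Cdkn1a in the RefSeq gene table had no called difference by the brightest probe set of each. The 3 measured on each side were Srsf3, Stk38 and Kctd20, and Rab44, Cpne5 and Ppil1. Srsf3 has 3 probe sets, and the genome position of the one used was not analysed here. Between the knockout groups their differences ran from -0.04 to 0.27 with 1 unadjusted p under 0.05, that of Ppil1 (0.0425), and the lowest adjusted p was 0.651. Ppil1 read 7.56, 7.43 and 7.78 in the labelled double knockout, 7.13, 7.51 and 7.32 in the NEMO knockout and 7.71, 7.71 and 7.56 in wild type. Against wild type the 6 differences ran from -0.18 to 0.15 in the labelled double knockout and from -0.34 to 0.09 in the NEMO knockout, with 1 and 2 unadjusted p under 0.05.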

How the data were processed

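Liver RNA of 9 samples in 3 groups of 3 was measured on single-channel arrays. The authors deposited 1 log2 value per probe set and array. The submitters' processing notes name RMA, a method that corrects background, normalises by quantiles and summarises probes by median polish. The log base was taken from RMA and the range of values, and further settings are not stated in the labels. Because RMA makes the arrays' distributions alike, a shift shared by all genes would not be seen. The table has 35556 probe sets. The 6617 (18.6%) with identifiers below the first annotated one were taken to be controls and left out. Of the 28939 tested, 21789 have 1 gene symbol, 1621 several and 5529 none, and 21698 of the first matched the gene table of assembly GRCm38.p6.

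All differences come from limma 3.58.1, run in R 4.3.3 (lmFit, eBayes without trend), over the 9 arrays, each group having its own mean, with p-values adjusted by Benjamini-Hochberg over the probe sets tested. Precision is limited by the number of arrays. The members and lists were chosen with earlier results of these data known. Named are Ikbkg, all 7 members, up to 4 called genes per list and comparison with the largest change, 7 set genes (Trp53, Mdm2, Skp2, Cdk2, Cdk4, Cdk6 and Ccnd1), up to 2 called genes of a marker list, the genes most like Cdkn1a or another called member by Pearson r, and the 3 genes on each side of Cdkn1a. E2f7, Cbx7, Lmnb1, the uncalled senescence-associated genes and second-group values of named genes were added after their values were seen. Lists are described by counts and medians, without a test of the list. Alternatives were 3 other scalings, an intensity trend, array weights, fits of 2 groups, other sets of probe sets, a replicate block, and leaving out each array.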

Additional observations from a re-analysis of the deposited data

How the results depend on the processing

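The number of CDK inhibitor genes called higher than wild type was 2 in the labelled double knockout and 1 in the NEMO knockout. In the labelled double knockout it was 1 when only the 2 groups compared were fitted, and 1 to 2 with each array left out; without wild type replicate 1, Cdkn2d was called and Cdkn1a was not. In the NEMO knockout it was 2 with array weights, which added Cdkn1a (1.69, adjusted p = 0.0479), and 1 to 2 with each array left out. Between the knockout groups it was 0 under every alternative run. The Cdkn1a difference from wild type ran from 1.69 to 2.59 in the labelled double knockout and 1.01 to 1.91 in the NEMO knockout over all alternatives. Differences that changed sign were all uncalled. Between the labelled double knockout and wild type, Cdkn1c was -0.0362 and Cdkn2b -0.0362 with arrays centred on their medians, and -0.043 and -0.0266 with quantile normalisation applied again; with arrays left out Cdkn1c ran from -0.00585 to 0.0445, Cdkn2a from -0.105 to 0.0138 and Cdkn2b from -0.033 to 0.0893. Between the NEMO knockout and wild type, Cdkn2a was 0.0173 with cyclic loess, and with arrays left out Cdkn1c ran from -0.131 to 0.0167, Cdkn2a from -0.0916 to 0.091 and Cdkn2b from -0.195 to 0.0482. Between the knockout groups Cdkn2a ran from -0.157 to 0.026 and Cdkn2b from -0.0205 to 0.223. The cause of these changes was not tested. Same-numbered samples did not all deviate together (r from -0.116 to 0.391), though between the knockout groups their correlations were 0.391, 0.0826 and 0.247, and an array correlated best with its own number in 9 of 18 checks. With a replicate block the members called stayed at 2, 1 and 0, while 2775, 2318 and 18 probe sets were called in place of 2696, 2222 and 57. Between the knockout groups the probe sets called fell to 31 with centring, 23 with only those 2 groups fitted and 28 with all probe sets of the table, were 78 with array weights, and ran from 10 (without labelled double knockout replicate 3) to 44 (without wild type replicate 1) with arrays left out; calls there were 54.8% higher with centring in place of 43.9%; against wild type they fell to 1601 without labelled double knockout replicate 3, and to 1382 without NEMO knockout replicate 3. Of the list and marker genes named in the text apart from Lmnb1, 5 of the 33 called in the labelled double knockout against wild type (Lin9, E2f4, E2f7, Cbx7 and Il1a), 9 of the 24 called in the NEMO knockout against wild type (Cdk6, Rbl1, E2f4, Id1, Ddb1, Btg2, Psrc1, Il1a and Hmgb2), and 3 of the 3 called between the knockout groups missed the threshold under at least 1 of 18 alternatives, with a highest adjusted p of 0.167.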
